A study of Mus musculus with 11 samples.

Results

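p53 is a transcription factor that is held low by Mdm2 in unstressed cells and is stabilised by DNA damage, oncogene activity and other stress. It then switches on genes that halt the cell cycle, trigger cell death, repair DNA or feed back on p53 itself. In the bile duct lining, p21, the product of the p53 target Cdkn1a, serves as a marker of senescence in cholestatic disease. The 10 genes described here, Mdm2, Ccng1, Plk2, Zmat3, Trp53inp1, Phlda3, Aen, Ei24, Tnfrsf10b and Eda2r, are established p53 targets. They were chosen by name, with earlier results of these data known. Each was found once by its gene name among the 43346 genes of the table.

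Their transcripts were measured in liver cells that bound beads against EpCAM, a surface protein of epithelial cells, and that the labels call cholangiocytes, the lining cells of the bile ducts. All mice were wildtype C57BL/6 males of 14 to 16 weeks, with 1 library per animal. The 4 Control mice ate chow, the 4 DDC mice ate the DDC diet for 10 days, and the 3 R15 mice ate it for 10 days followed by chow for 15 days. DDC (3,5-diethoxycarbonyl-1,4-dihydrocollidine in full) injures bile ducts and causes cholestasis in mice, and the comparisons ask what the diet did to these cells and what was left after it was stopped. These are whole populations of selected cells, so fewer cells of a type and less RNA per cell cannot be told apart.

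The libraries held 49339240 to 72929107 reads, worked back from the FPKM values, and an FPKM near 1 rested on a median of 122.5 reads. FPKM scales the reads of a gene by its length and by the reads of its library, so levels of different genes can be compared on it. The 8 cholangiocyte markers were present and summed to between 7981 and 10951 FPKM per library. Markers of other cells, and genes of cycling cells, moved with the groups. The 10 macrophage markers summed to between 119 and 140 FPKM in Control, 1251 and 2221 in DDC, and 134 and 670 in R15, the highest R15 sum being that of R15 2. The 6 genes of cycling cells summed to between 8.70 and 18.4 FPKM in Control, 98.1 and 104 in DDC and 9.73 and 16.6 in R15. The 4 neutrophil markers summed to between 1.31 and 3.87 FPKM in Control, 41.1 and 69.0 in DDC and 2.60 and 9.83 in R15. The sums of 3 other lists were lower in DDC than in Control. Those of the 8 hepatocyte markers ran from 2957 to 3660 FPKM in Control, 1131 to 1649 in DDC and 1844 to 2521 in R15. The 8 endothelial markers summed to 75.6 to 342, 11.7 to 38.5 and 49.7 to 166 FPKM in the same order, and the 6 markers of B and plasma cells to 41.3 to 89.7, 11.6 to 23.0 and 38.4 to 173. None of these markers was at 0 in every library. The sums do not stand for each marker. Of the 8 hepatocyte markers 3 were called lower in DDC by the test described below, namely Alb, Ttr and Cyp2e1. Serpina1c was called higher, and 4 did not pass. Which cells carried the transcripts of cycling cells was not measured, and cholangiocytes may be among them. The part of the other cells and of cycling in the changes below was not tested. Pancreatic acinar or gastric mucous transcripts stood out in Control 1, Control 2, Control 3, DDC 1 and R15 3, and results that depend on those libraries are given without them.

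Differences were tested with limma on log2(FPKM + 1) over 15264 genes, with p-values adjusted by Benjamini-Hochberg over all of them and a threshold of 0.05. Under the diet 6 of the 9 members tested rose, 1 fell and 2 did not pass. Of all genes tested, 33.5% rose and 31.9% fell, 65.4% in all, so that most genes tested changed under the diet. That split was 5112 higher and 4869 lower, and 4162 and 5518 once all libraries were brought to one total. The 9 members tested had a median difference of 0.28 on the log2 scale against 0.0029 for all genes. As the members were chosen with earlier results known, no independent excess over all genes is read from these values. Each of the 9 was at or above 1.90 FPKM in every library, so the filter on low values did not choose them by group. Eda2r was under that filter and had no test. The members split by level. In Control, Ei24, Trp53inp1, Plk2 and Ccng1 stood at group means of 35.2, 32.2, 25.3 and 25.03 FPKM, and the difference to DDC of each of these 4 was at most 0.28 on the log2 scale. Tnfrsf10b, Phlda3, Aen and Zmat3 stood at 4.62, 4.33, 2.81 and 2.11 FPKM, and each of them rose by at least 0.54 on the log2 scale. Mdm2 lay between the 2 sets at 11.4 FPKM, and Eda2r was lowest at 0.169 FPKM.

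**Figure D1:**
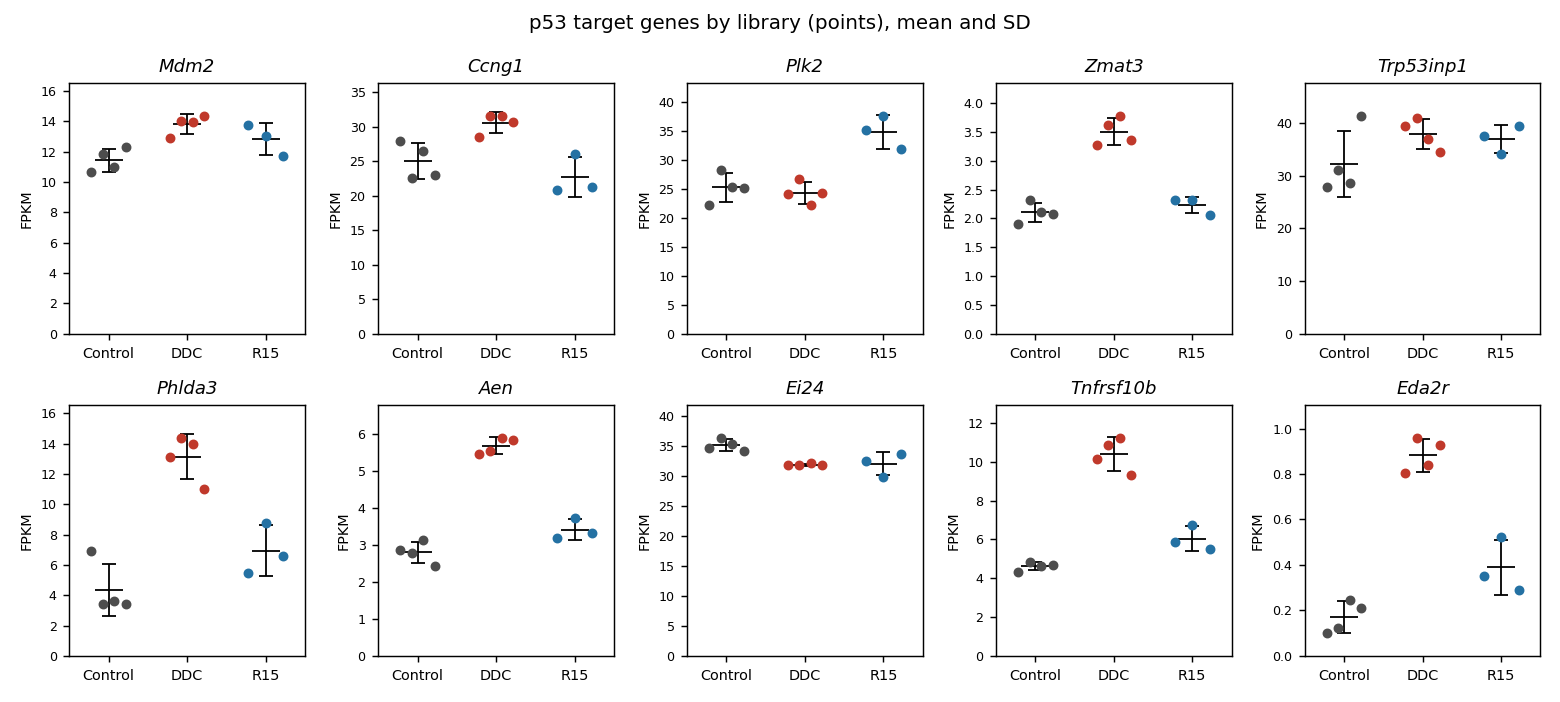
FPKM of the 10 p53 target genes (linear vertical axes from 0) in each library of Control, DDC and R15 (points), with the group mean and SD (bars). In DDC the points of Phlda3, Zmat3, Aen, Tnfrsf10b and Eda2r lie above all others, while those of Plk2 are highest in R15.

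Among the members that act on p53 and on the cell cycle, Mdm2 and Ccng1 rose under the diet and Plk2 did not pass. Mdm2 (ENSMUSG00000020184, chr10:117688888-117710758 of mm10, minus strand), the ubiquitin ligase that marks p53 for destruction and is itself a p53 target, stood at 10.7, 11.8, 10.95 and 12.3 FPKM in Control 1 to 4, at 12.9, 14.0, 14.0 and 14.4 FPKM in DDC 1 to 4, and at 13.8, 13.0 and 11.7 FPKM in R15 1 to 3. Every DDC library lay above every Control library, whereas R15 overlapped both groups. Mdm2 rose under the diet by 0.25 ± 0.06 on the log2 scale (SE; limma adjusted p = 0.00406), a ratio of mean FPKM of 1.21. This call was lost when all libraries were brought to one total, at 0.17 and adjusted p = 0.0707. It was also lost without the 5 libraries with pancreatic or gastric transcripts, at 0.19 and adjusted p = 0.0522; that setting, here and below, leaves 1 Control library, which is assumed to vary like the other groups. For R15 against Control the difference was 0.15 ± 0.07 on the log2 scale (limma adjusted p = 0.157) and for R15 against DDC -0.10 ± 0.07 (limma adjusted p = 0.209), neither past the threshold; the second passed with median-of-ratios scaling, at -0.15 and adjusted p = 0.0437.

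Ccng1 (ENSMUSG00000020326, chr11:40748552-40755311 of mm10, minus strand) encodes cyclin G1, which recruits a phosphatase to Mdm2 and is among the first p53 targets described. It stood at 28.0, 22.6, 26.5 and 23.1 FPKM in Control 1 to 4, 28.5, 31.6, 31.5 and 30.7 FPKM in DDC 1 to 4, and 20.9, 26.1 and 21.2 FPKM in R15 1 to 3. All DDC libraries were above all others, though DDC 1 exceeded Control 1 by little. Ccng1 rose under the diet by 0.28 ± 0.09 on the log2 scale (limma adjusted p = 0.0143) and fell afterwards by 0.42 (SE 0.09; adjusted p = 0.00288). R15 and Control overlapped, at -0.14 ± 0.09 with a 95% interval from -0.34 to 0.07 on the log2 scale.

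Plk2 (ENSMUSG00000021701, chr13:110395044-110400844 of mm10, plus strand), a polo-like kinase that acts early in the cell cycle, had a course of its own. It stood at 22.3, 28.3, 25.4 and 25.2 FPKM in Control 1 to 4, 24.2, 26.8, 22.2 and 24.4 FPKM in DDC 1 to 4, and 35.2, 37.7 and 31.9 FPKM in R15 1 to 3. Control and DDC overlapped, and all R15 libraries lay above both. The difference of DDC to Control was -0.05 ± 0.08 on the log2 scale, with a 95% interval from -0.23 to 0.13. Plk2 rose in R15 against DDC by 0.50 ± 0.09 (limma adjusted p = 0.000644) and against Control by 0.45 ± 0.09 (limma adjusted p = 0.0136) on the log2 scale. The rise against Control was lost with only the 2 groups in the fit (adjusted p = 0.0610), without Control 1 and Control 3 (adjusted p = 0.0768) and without the 5 libraries with pancreatic or gastric transcripts (adjusted p = 0.219), at 0.45, 0.37 and 0.52 on the log2 scale; the rise against DDC held in all 22 alternatives.

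Of the members that work on RNA, kinase signalling and autophagy, Phlda3 and Zmat3 rose and then fell, and Trp53inp1 passed in no comparison. Phlda3 (ENSMUSG00000041801, chr1:135766119-135769136 of mm10, plus strand), a small pleckstrin-homology protein that keeps the kinase AKT off the membrane, stood at 6.89, 3.42, 3.59 and 3.43 FPKM in Control 1 to 4, 13.1, 14.4, 14.0 and 11.02 FPKM in DDC 1 to 4, and 5.46, 8.77 and 6.57 FPKM in R15 1 to 3. DDC lay clear of both other groups, and Control 1 stood apart from the other Control libraries. Phlda3 rose under the diet by 1.45 ± 0.20 on the log2 scale (limma adjusted p = 0.000109), the largest rise of the 9 members tested, with a ratio of mean FPKM of 3.03. It fell by 0.85 (SE 0.21; adjusted p = 0.00578) once the diet was stopped. R15 against Control, at 0.60 ± 0.21 on the log2 scale, did not pass (limma adjusted p = 0.103), but did so without Control 1, at 0.80 and adjusted p = 0.0166.

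Zmat3 (ENSMUSG00000027663, chr3:32334792-32366014 of mm10, minus strand), a zinc finger protein that binds RNA and controls splicing, stood at 1.90, 2.32, 2.12 and 2.09 FPKM in Control 1 to 4, 3.27, 3.63, 3.78 and 3.35 FPKM in DDC 1 to 4, and 2.32, 2.32 and 2.07 FPKM in R15 1 to 3. Its DDC libraries lay above all others, and R15 overlapped Control. Zmat3 rose by 0.54 ± 0.06 on the log2 scale (limma adjusted p = 3.52e-05) and fell by 0.48 (SE 0.07; adjusted p = 0.000181), and R15 differed from Control by 0.06 ± 0.07 with a 95% interval from -0.09 to 0.21.

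Trp53inp1 (ENSMUSG00000028211, chr4:11156431-11174379 of mm10, plus strand), a nuclear and autophagy protein of the stress response, stood at 27.8, 31.1, 28.5 and 41.4 FPKM in Control 1 to 4, 39.4, 40.8, 36.8 and 34.5 FPKM in DDC 1 to 4, and 37.4, 34.1 and 39.3 FPKM in R15 1 to 3. Control 4 was the highest of all 11 libraries, and all groups overlapped. No comparison of Trp53inp1 passed: DDC against Control was 0.24 ± 0.11 on the log2 scale (limma adjusted p = 0.0840). Without Control 4 it passed against Control, at 0.37 (adjusted p = 0.00170) for DDC and 0.33 (adjusted p = 0.0351) for R15, and without the 5 libraries with pancreatic or gastric transcripts, which leaves Control 4 as the lone Control, both differences turned to -0.15 and -0.21.

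Tnfrsf10b and Aen, which take part in cell death, rose most after Phlda3 among the members tested. Tnfrsf10b (ENSMUSG00000022074, chr14:69767472-69784403 of mm10, plus strand), the receptor for the death ligand TRAIL, stood at 4.34, 4.82, 4.65 and 4.67 FPKM in Control 1 to 4, 10.2, 10.9, 11.3 and 9.32 FPKM in DDC 1 to 4, and 5.85, 6.75 and 5.49 FPKM in R15 1 to 3. The 3 groups did not overlap, with R15 between the others. Tnfrsf10b rose by 1.02 ± 0.07 on the log2 scale (limma adjusted p = 1.27e-06), a ratio of mean FPKM of 2.25, and fell by 0.70 (SE 0.07; adjusted p = 3.67e-05) after the diet. It was still above Control in R15, by 0.32 ± 0.07 (limma adjusted p = 0.0292). That last call was lost in 9 of 22 alternatives, among them those without Control 1 (0.30, adjusted p = 0.0673), Control 3 (0.32, adjusted p = 0.0554), Control 4 (0.32, adjusted p = 0.0504), R15 1 (0.34, adjusted p = 0.0699) or R15 2 (0.25, adjusted p = 0.0859), with values on the log2 scale; over all alternatives its adjusted p ran from 0.0258 to 0.345. Tnfrsf10b is also a known target of the stress factor encoded by Ddit3. Of 6 tested genes of that integrated stress response, Atf3, Atf4 and Ppp1r15a rose under the diet, Ddit3 fell, and Trib3 and Asns did not pass. Over all genes 33.5% rose and 31.9% fell. Atf3 and Atf4 overlapped between DDC and Control. Ddit3 fell by 0.59 on the log2 scale (SE 0.09, limma adjusted p = 0.000201), and the part of this response in the level of Tnfrsf10b was not tested.

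Aen (ENSMUSG00000030609, chr7:78895854-78911209 of mm10, plus strand), a nuclease that takes part in the breakdown of DNA in dying cells, stood at 2.87, 2.78, 3.14 and 2.44 FPKM in Control 1 to 4, 5.47, 5.56, 5.91 and 5.85 FPKM in DDC 1 to 4, and 3.18, 3.73 and 3.34 FPKM in R15 1 to 3. Here too the groups did not overlap, although Control 3 and R15 1 were close. Aen rose by 0.82 ± 0.06 on the log2 scale (limma adjusted p = 3.07e-06), a ratio of mean FPKM of 2.03, and fell by 0.60 (SE 0.07; adjusted p = 5.82e-05). R15 against Control was 0.21 ± 0.07 and did not pass (limma adjusted p = 0.0828), except with all libraries brought to one total (0.24, adjusted p = 0.0401).

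Eda2r (ENSMUSG00000034457, chrX:97333840-97377216 of mm10, minus strand), a receptor of the tumour necrosis factor family that binds an ectodysplasin, had the lowest level of the 10 genes. It stood at 0.0989, 0.121, 0.245 and 0.212 FPKM in Control 1 to 4, 0.803, 0.960, 0.839 and 0.926 FPKM in DDC 1 to 4, and 0.353, 0.524 and 0.292 FPKM in R15 1 to 3, on 41 to 100, 244 to 367 and 111 to 197 reads per library. The groups did not overlap, and the ratio of mean FPKM was 5.21 for DDC over Control and 2.30 for R15 over Control. With no filter on low values, Eda2r differed by 0.69 (adjusted p = 1.88e-05) for DDC against Control, -0.44 (adjusted p = 0.000637) for R15 against DDC and 0.25 (adjusted p = 0.0723) for R15 against Control on the log2 scale, which understates the change of so low a gene.

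Ei24 (ENSMUSG00000062762, chr9:36779159-36797361 of mm10, minus strand), a membrane protein of the endoplasmic reticulum that p53 induces in dying cells, was the only member that fell under the diet. It stood at 34.8, 36.5, 35.4 and 34.3 FPKM in Control 1 to 4, 31.8, 31.9, 32.2 and 31.8 FPKM in DDC 1 to 4, and 32.6, 29.9 and 33.7 FPKM in R15 1 to 3. All Control libraries lay above all others. Ei24 fell by 0.14 on the log2 scale (SE 0.04; limma adjusted p = 0.00979), and R15 against Control, at -0.13 ± 0.04, did not pass (limma adjusted p = 0.0732). The fall under the diet was lost without the 5 libraries with pancreatic or gastric transcripts, at -0.10 and adjusted p = 0.262. R15 passed with median-of-ratios scaling, at -0.20 and adjusted p = 0.0270. Part of Ei24 overlaps the antisense gene Gm26787 in GENCODE M21, and whether the counting used strand is not stated.

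**Figure D2:**
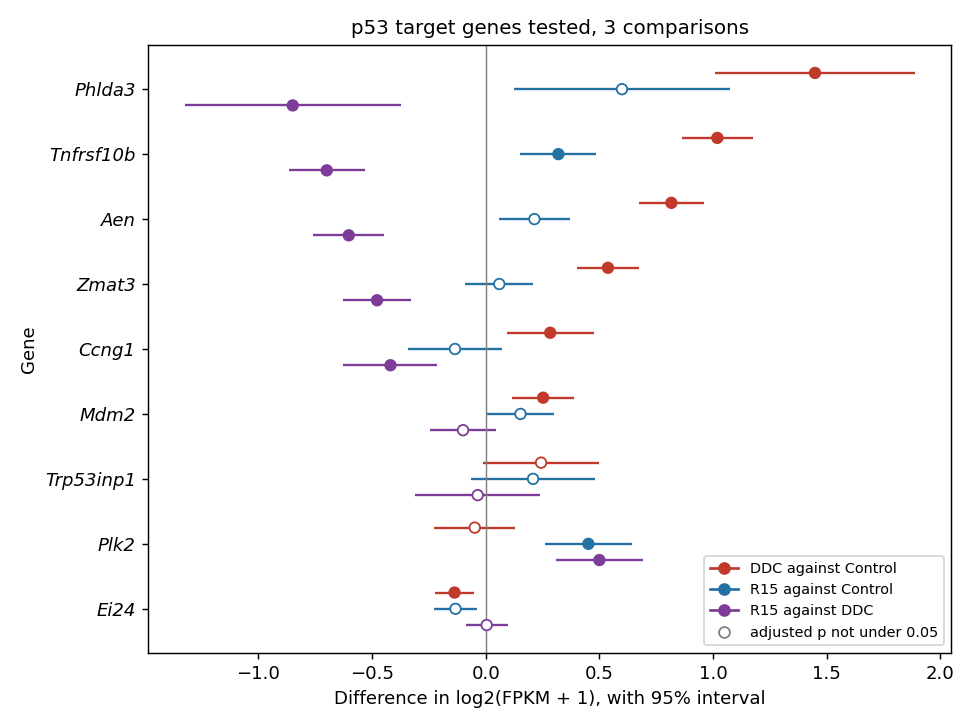
Difference in log2(FPKM + 1) (horizontal axis) with its 95% interval for the 9 members tested, in 3 comparisons (colours); filled points have a limma adjusted p under 0.05. Phlda3, Tnfrsf10b, Aen, Zmat3 and Ccng1 have filled points on the right for DDC against Control and on the left for R15 against DDC. Plk2 alone has a filled point on the right for R15 against DDC.

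After the diet was stopped, 5 of the 9 members tested fell from DDC to R15, namely Ccng1, Zmat3, Phlda3, Aen and Tnfrsf10b, 1 rose and 3 did not pass. Over all genes 28.8% fell and 33.4% rose, 62.2% in all. The split over all genes was 5099 higher and 4397 lower, against 6172 and 3305 once all libraries were brought to one total, which moved the median of all genes by 0.10 on the log2 scale. The count of 5 falling members ran from 4 to 6 over the alternatives. For R15 against Control, 2 of 9 rose, Tnfrsf10b and Plk2, and 0 fell by limma, beside 6.87% rising and 2.72% falling over all genes, 9.58% in all (1048 higher and 415 lower, or 622 and 804 with median-of-ratios scaling). At an unadjusted limma p under 0.05 Mdm2, Phlda3, Aen, Tnfrsf10b and Plk2 were higher there and 1 member, Ei24, was lower. The share of all genes at that threshold was not counted. With limma voom on the reads 2 members were called higher and 0 lower. Groups did not overlap in 7 of the 9 members for DDC against Control (61.3% of all genes), in 6 for R15 against DDC (66.6%) and in 4 for R15 against Control (21.3%). The comparisons with Control share the same 4 libraries. Of the 10 members 7 were highest among the R15 mice in R15 2, the library with the highest macrophage sum. The share of all genes highest in R15 2 was not counted, so nothing particular to the members is read from this. Without R15 2, no difference of a member between R15 and DDC lost its call. For R15 against Control, Tnfrsf10b lost its call without R15 2, at 0.25 on the log2 scale (limma adjusted p = 0.0859), and the count of 2 higher became 1.

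The levels of the members followed each other as Ei24, Trp53inp1, Plk2, Ccng1, Mdm2, Tnfrsf10b, Phlda3, Aen, Zmat3 and Eda2r in Control. Ei24 and Trp53inp1, Trp53inp1 and Plk2, Plk2 and Ccng1, and Tnfrsf10b and Phlda3 overlapped in their Control libraries, while the other neighbours did not. In DDC Trp53inp1 came first with 37.9 ± 2.80 FPKM (SD, n = 4), and Phlda3, at 13.1 ± 1.51 FPKM, overlapped Mdm2 at 13.8 ± 0.644 FPKM. In R15 Plk2, at 34.9 ± 2.94 FPKM (SD, n = 3), overlapped Trp53inp1 at 36.9 ± 2.63 FPKM and Ei24 at 32.1 ± 1.93 FPKM.

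By the mean absolute difference in log2(FPKM + 1) over the 11 libraries, each gene set to its Control mean, the genes of at least 5 FPKM closest to Mdm2 were Atp9b (0.0311), Rbak (0.0322) and Rnf111 (0.0338). Those closest to Ccng1 were Rpl10 (0.0518), Calr (0.0531) and Pgam1 (0.0588). No other member was among the 3 closest to either. The limit of 5 FPKM left out Aen, Zmat3 and Eda2r, and the measure asks for changes of like size. Whether the members moved together is therefore not read from this. Rpl10 went from 190 FPKM in Control to 220 in DDC and 177 in R15, a course as shallow as that of Ccng1.

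Promoter sequences show where p53 could bind near the start of these genes. RefSeq windows of build GRCm38.p6, the build of mm10, were found for 7 of the 10 members, all but Trp53inp1, Zmat3 and Tnfrsf10b. The 10-base p53 motif, called a decamer here, was searched in the 250 bases before the start; its pattern reads alike on both strands. A full site was taken as 2 adjoining decamers with at most 2 mismatches in all and the C and G of each core kept. Among all 32851 windows 0.271% held such a full site and 7.13% a decamer with no mismatch. Of the members Ccng1 alone held a full site, with 1 mismatch, and 4 of 7 held a decamer: Mdm2, Ccng1, Aen and Ei24. Members were counted by gene, with a match in any window, and the shares by window. Aen has 2 windows and held its decamer in the second alone. Cdkn1a, the gene of p21 and no member, held a full site with 1 mismatch in 1 of its 2 windows and serves as the comparison. Both stretches are printed 5′ to 3′ along the gene, with the full site in capitals.
Ccng1 (chr11:40755442-40755501, minus strand): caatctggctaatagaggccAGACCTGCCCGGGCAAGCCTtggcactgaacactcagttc
Cdkn1a (chr17:29090908-29090967, plus strand): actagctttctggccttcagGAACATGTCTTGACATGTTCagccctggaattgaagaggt
The site begins 195 bases before the Ccng1 start and 51 bases before this Cdkn1a start. Ccng1 rose by 0.28 and Cdkn1a by 1.68 on the log2 scale under the diet. These are matches of letters, and binding was not measured. Sites outside these windows were not examined, and the well-known p53 sites of Mdm2 lie in an intron, downstream of the window.

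The series title names NF-Y, the factor that binds CCAAT boxes, so CCAAT was searched in the same windows on both strands, where its reverse reads ATTGG. It was present in 4 of the 7 members with a window (Mdm2, Ccng1, Aen and Eda2r), again counted by gene, and in 33.8% of all windows. The stretches show each box in capitals, 5′ to 3′ along the gene, and in Ccng1 no box overlapped the p53 site.
Mdm2 (chr10:117710813-117710842, minus strand): cccccgcctcctATTGGtccaggaggcggc
Ccng1, far box (chr11:40755485-40755514, minus strand): ccgctacccagaCCAATctggctaatagag
Ccng1, middle box (chr11:40755392-40755421, minus strand): ttcggaaatgctCCAATgagagaggctgcg
Ccng1, near box (chr11:40755311-40755340, minus strand): aagtgtgcgctgATTGGccgagcttcctca
Eda2r (chrX:97377239-97377268, minus strand): ttataaaatggtCCAATagctgtcctgcat
Aen, first box (chr7:78895860-78895889, plus strand): gagcaggatcaaCCAATcagaagagtcctt
Aen, second box (chr7:78895902-78895931, plus strand): cgccccagagaaCCAATagacaggtagccg
Both Aen boxes lie before the first of its 2 RefSeq starts and within a GENCODE M21 exon of the gene. These too are matches of letters.

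The transcript of p53 itself rose under the diet. Trp53 stood at 15.4, 18.2, 18.3 and 17.9 FPKM in Control 1 to 4, 31.8, 34.5, 35.6 and 29.9 FPKM in DDC 1 to 4, and 23.4, 24.2 and 23.1 FPKM in R15 1 to 3. The groups did not overlap, with R15 between the other two. Trp53 rose by 0.88 ± 0.07 on the log2 scale (limma adjusted p = 2.21e-06), fell afterwards by 0.46 (SE 0.07; adjusted p = 0.000321) and was above Control in R15 by 0.42 ± 0.07 (limma adjusted p = 0.00844; 0.39 and adjusted p = 0.272 without the 5 libraries with pancreatic or gastric transcripts, which leaves 1 Control). p53 is controlled largely at the protein, which was not measured here.

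Of the list of the p53 family, its activators and regulators, Trp53 included, 4 of 14 tested rose under the diet and 6 fell, beside 33.5% and 31.9% of all genes. Nothing particular to the list is read from these counts. The 4 were Trp53, Atr, Chek1 and Chek2, the last 3 being kinases of the DNA damage response. Chek1 rose from 0.660 ± 0.177 to 3.33 ± 0.204 FPKM (SD, n = 4 each), by 1.39 ± 0.09 on the log2 scale (limma adjusted p = 8.03e-07), in the libraries in which cycling genes rose. In Control it lay under the filter of 1 FPKM, and R15 differed from Control by 0.13 on the log2 scale. Chek1 was therefore tested only through its DDC libraries, and no support is drawn from its call. The 6 were Mdm4, Hipk2, Trp53bp1, Ep300, Crebbp and Sirt1. Hipk2, a kinase that phosphorylates p53, fell from 28.4 ± 3.20 to 16.8 ± 1.12 FPKM, by 0.72 (SE 0.09; adjusted p = 5.83e-05). Mdm4, the partner of Mdm2 that restrains p53, stood at 14.5, 14.9, 12.4 and 17.1 FPKM in Control, 11.6, 12.2, 11.4 and 12.1 FPKM in DDC and 19.0, 16.2 and 15.4 FPKM in R15. DDC lay below both other groups, and a pseudogene on the opposite strand overlaps the gene. Mdm4 fell by 0.29 (SE 0.09; limma adjusted p = 0.0153) and then rose by 0.48 ± 0.10 (limma adjusted p = 0.00160) on the log2 scale. Trp63, Trp73 and Cdkn2a lay under the filter.

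**Figure D3:**
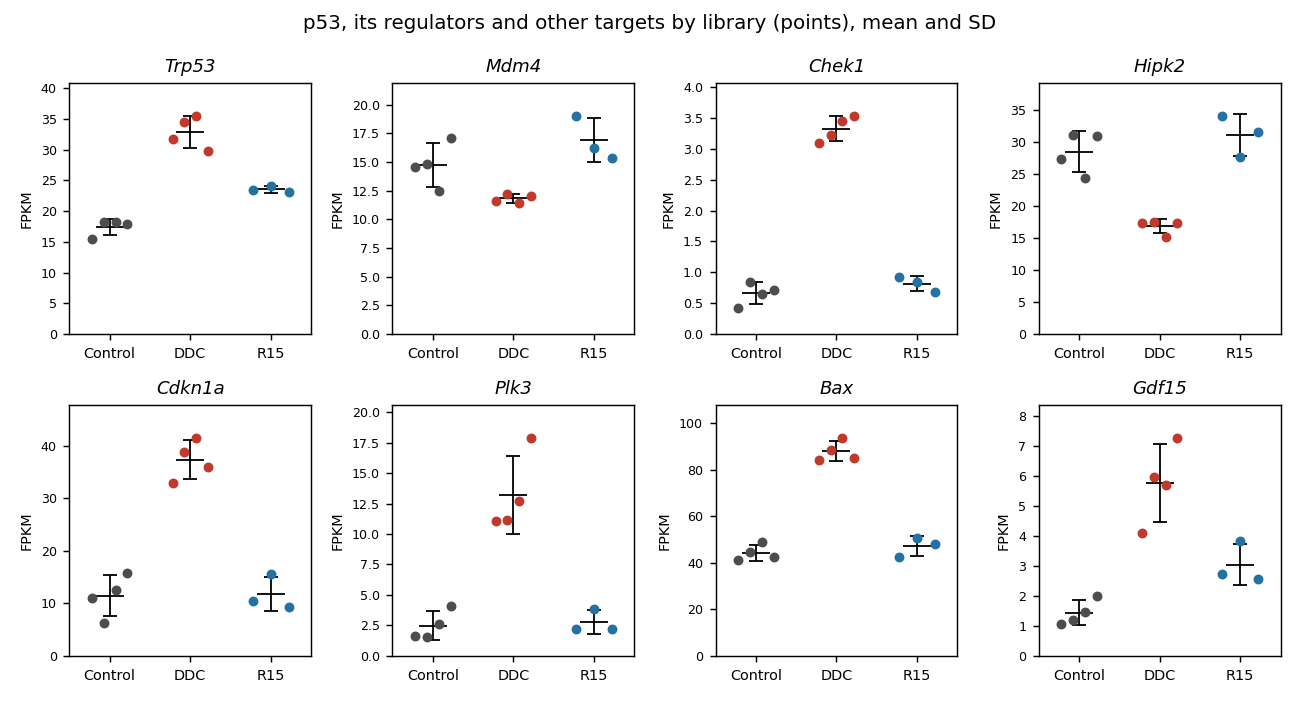
FPKM of Trp53, Mdm4, Chek1, Hipk2, Cdkn1a, Plk3, Bax and Gdf15 (linear vertical axes from 0) in each library (points), with the group mean and SD (bars). The 4 DDC points lie above all Control points for Trp53, Chek1, Cdkn1a, Plk3, Bax and Gdf15 and below them for Mdm4 and Hipk2.

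A list of 38 further p53 targets, 35 of them tested, moved in both directions. The list was put together with earlier results of these data known. Its counts and medians, here and by role below, are therefore no independent support for a shift. Under the diet 23 rose and 8 fell, beside 33.5% and 31.9% of all genes, with a median of 0.31 on the log2 scale; 20 fell and 8 rose from DDC to R15 (median -0.30), and 3 rose and 1 fell in R15 against Control (median 0.09). The medians of all genes were 0.0029, 0.0352 and 0.0452 in these comparisons. The count of 23 ran from 18 to 23 over the alternatives. Growth arrest genes rose in 5 of 5 tested, beside the same 33.5%. Of these, Gadd45a passed narrowly, at 0.16 on the log2 scale (limma adjusted p = 0.0493), and Btg2 overlapped between DDC and Control. E2f7 lay under the filter. Cdkn1a, the inhibitor of cyclin-dependent kinases, stood at 11.1, 6.35, 12.6 and 15.8 FPKM in Control, 32.9, 38.8, 41.5 and 35.9 FPKM in DDC and 10.5, 15.5 and 9.31 FPKM in R15. R15 lay within the Control range, and DDC above both; an antisense gene model overlaps Cdkn1a. Cdkn1a rose by 1.68 ± 0.23 (limma adjusted p = 0.000124) and fell by 1.61 (SE 0.25; adjusted p = 0.000361) on the log2 scale. Plk3, a kinase of the same family as Plk2, rose by 2.07 ± 0.25 and Sfn, a 14-3-3 protein of epithelia, by 0.79 ± 0.25; Sfn did not pass without the 5 libraries with pancreatic or gastric transcripts (0.31, adjusted p = 0.0790).

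Cell death genes rose in 8 of 10, with Cdip1 lower and Fas not passing, where 33.5% of all genes rose and 31.9% fell. Bax, which opens the outer membrane of mitochondria, went from 44.4 ± 3.40 to 88.1 ± 4.29 FPKM and back to 47.3 ± 4.25 in R15 (SD, n = 4, 4 and 3), at 0.97 ± 0.07 for DDC against Control (limma adjusted p = 1.43e-06). Its overlap with Gm45808 on the same strand leaves its reads uncertain. Apaf1, the scaffold that activates caspases, rose by 0.85 ± 0.05 and was still above Control in R15 by 0.41 ± 0.05 (limma adjusted p = 0.00190; 0.42 and adjusted p = 0.170 without the 5 libraries with pancreatic or gastric transcripts). Dram1, a lysosomal protein of autophagy, rose by 1.43 ± 0.14 on the log2 scale.

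Among genes of DNA repair, metabolism and other roles, 10 were higher and 7 lower of 20 tested, the lower share being near the 31.9% of all genes, of which 33.5% were higher. Ddit4, an inhibitor of mTORC1 that hypoxia and glucocorticoids also induce, rose by 1.84 ± 0.13 on the log2 scale. Gdf15, a secreted stress cytokine, rose by 1.47 ± 0.17 and stood above Control in R15 by 0.73 ± 0.18 (limma adjusted p = 0.0343). That R15 call was lost in 12 of 22 alternatives, among them those without Control 1, Control 3, DDC 2, DDC 3, R15 1, R15 2 or R15 3, at differences of 0.66, 0.75, 0.73, 0.73, 0.79, 0.60 and 0.81. Rrm2b, the p53-induced subunit of ribonucleotide reductase, fell by 0.43 (SE 0.05; adjusted p = 4.96e-05) on the log2 scale. Of the 3 targets above Control in R15, the remaining one was Gadd45a, at 0.36 ± 0.07, and the 1 below was Ak1, at -0.63 ± 0.14. The count of 3 higher became 0 without the 5 libraries with pancreatic or gastric transcripts, which leaves 1 Control, 1 with only the 2 groups compared, and 2 to 4 in the other alternatives. The count of 1 lower became 0 without Control 4, without R15 2, without those 5 libraries, with only the 2 groups compared, with the replicate block, with one total and with a filter at FPKM 5; it was 2 with median-of-ratios scaling and 4 without Control 2.

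**Figure D4:**
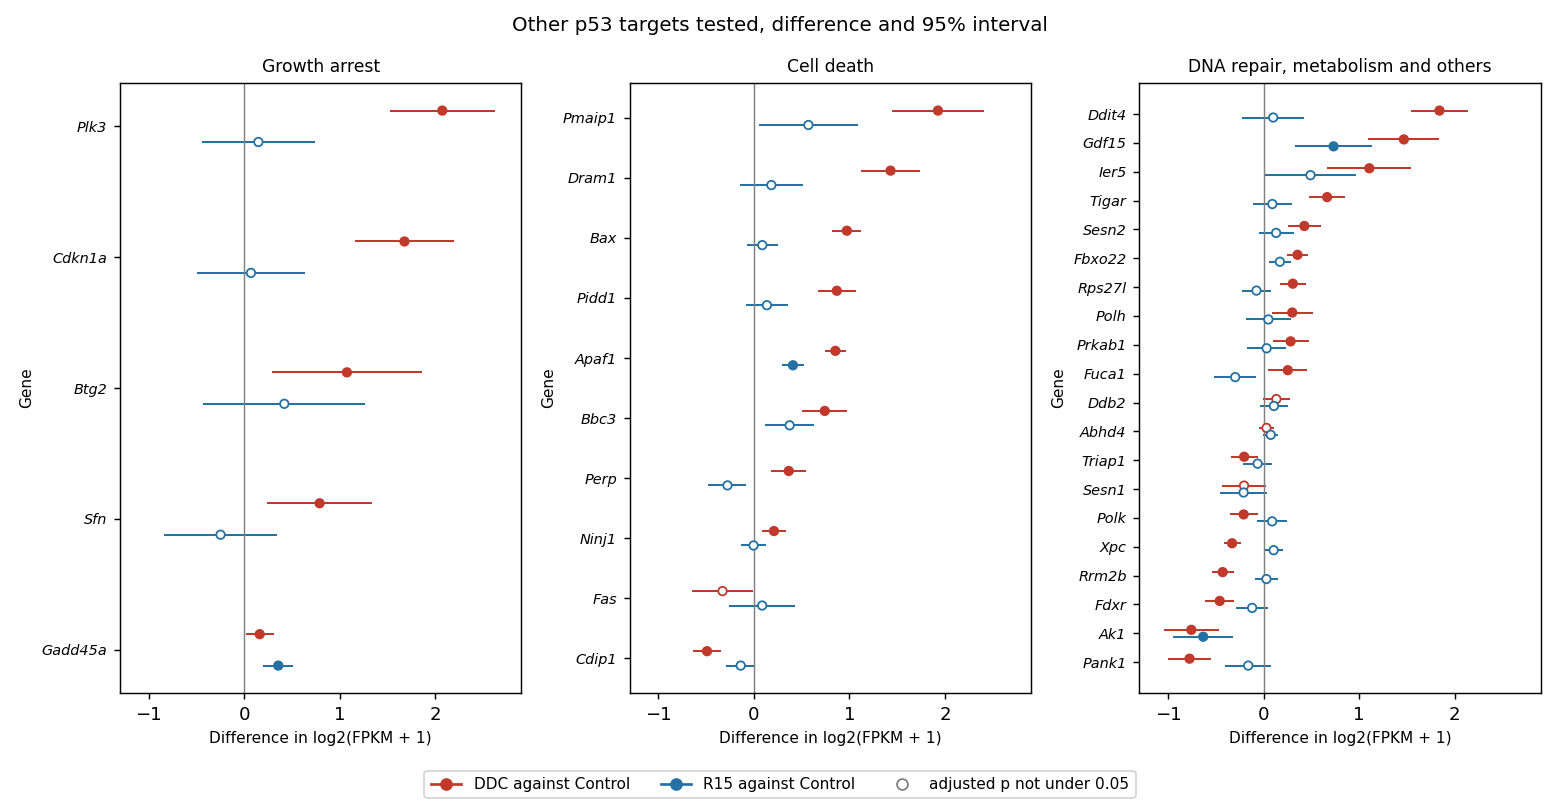
Difference in log2(FPKM + 1) with its 95% interval (horizontal axes) for the 35 further p53 targets tested, in 3 groups by role, for DDC against Control and R15 against Control; filled points have a limma adjusted p under 0.05. Filled points for DDC lie on the right for 23 genes and on the left for 8, and filled points for R15 are 4 in all.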

How the data were processed

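RNA of EpCAM-selected liver cells was sequenced with a stranded mRNA kit, as the labels' protocols state. The authors deposited FPKM per gene and library; mm10 is the build per the submitters' processing notes, and the sources used here do not name the aligner, counter or gene models. Every per-sample column was mapped to a library by its label. Whole reads, recovered from 100% of nonzero values within a tolerance of 0.001 (each value times gene length plus 1, the smallest product taken as 1 read), served for depth and for limma voom. Genes that reached an FPKM of 1 in 3 or more libraries entered one limma 3.58.1 model (R 4.3.3) of 3 groups on log2(FPKM + 1), a scale that understates changes of low genes. The test was run on simulated data first. Named beside the members were 4 fixed genes and the 3 genes with the smallest p of each further p53 list; genes named in counts of 6 or fewer were named after their values were seen. Alternatives were pseudocounts 0.1 and 5, no filter, a filter at FPKM 5, 2 scalings, only the 2 groups compared, a replicate block, voom and libraries left out. Members and lists were chosen with earlier results of these data known. P-values set each difference against the spread between single mice within groups. That spread was estimated over the 3 groups together and drawn towards that of genes of like level.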

Additional observations from a re-analysis of the deposited data

Results flagged for a closer look

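In 46 pairs of gene and group, with 4 libraries each, the library at either end was compared with the rest, and 3 stood apart by more than Dixon's limit; chance flags about 1 in 20. Phlda3 in Control 1 was high, at 6.89 FPKM against 3.42 to 3.59 in the other Control libraries. Trp53 in Control 1 was low, at 15.4 FPKM against 17.9 to 18.3. Hipk2 in DDC 3 was low, at 15.2 FPKM against 17.3 to 17.5. Control 1 is also the library with the most pancreatic acinar transcript; its part in the values of Phlda3 and Trp53 was not tested.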

How the results depend on the processing

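The 6 members that rose under the diet numbered 6 to 7 with each library left out and 5 to 7 in the other alternatives. The 1 that fell became 0 without the 5 libraries with pancreatic or gastric transcripts. In R15 against Control the count of 2 higher was 1 to 2 with single libraries left out, 0 with only the 2 groups compared, 1 with the replicate block, 1 without Control 1 and Control 3, and 0 without the 5 libraries; 1 member was lower with median-of-ratios scaling. There the genes called over the whole table, 1463, became 317, 693, 491 and 13 in the same settings, and 660 to 2184 with single libraries left out, the lower values being 831 without Control 1, 949 without Control 3, 946 without DDC 2, and 660, 734 and 970 without R15 1, 2 and 3; the cause was not tested. The split was 1048 higher and 415 lower, or 622 and 804 with median-of-ratios scaling. With all libraries brought to one total, the count of 2 members higher in R15 against Control became 3. The replicate numbers did not pair the mice: 3 of 10 same-numbered pairs had correlated deviations over 0.1, and 1 of 11 libraries correlated best with its own number. Differences that had not passed changed sign as follows, in log2 units. Without the 5 libraries, Trp53inp1 was -0.15 for DDC and -0.21 for R15 against Control; for R15 against Control Ccng1 was 0.017, Cdkn1a -0.28, Hipk2 -0.011, Plk3 -0.38 and Ddit4 -0.35, and for R15 against DDC Ei24 was -0.033. Without Control 1 and Control 3, R15 against Control was -0.00097 for Hipk2 and -0.033 for Rrm2b. Median-of-ratios scaling gave -0.027 for Rrm2b (R15 against Control) and -0.048 for Ei24 (R15 against DDC). One total gave 0.0097 for Mdm2 and 0.079 for Trp53inp1, and the replicate block 0.0048 for Trp53inp1 and -0.0032 for Ei24, all for R15 against DDC. With single libraries left out, Plk2 ran from -0.10 to 0.0051 (DDC against Control); R15 against Control ran from -0.16 to 0.23 for Cdkn1a, -0.057 to 0.35 for Plk3, -0.028 to 0.23 for Ddit4 and -0.0015 to 0.063 for Rrm2b; R15 against DDC ran from -0.080 to 0.020 for Trp53inp1 and -0.031 to 0.052 for Ei24. Eda2r, on 41 to 100 reads in Control, is limited by depth.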
